A study of Mus musculus with 16 samples.

Results

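The 36 genes described here are chemokines and chemokine receptors: 17 CC ligands, 11 CXC or CX3C ligands, 6 signalling receptors and 2 atypical receptors. They were chosen by RefSeq accession, as every non-control probe that belonged to a gene of a list of chemokine names, which gave 41 of the 55681 probes and 36 of the 20660 genes named on the array. Their RNA was measured in retina and retinal pigment epithelium (RPE) of mice on 16 one-colour Agilent arrays, in 4 groups of 4. The groups were nm3342 mutants at 1 month, wild types at 1 month, nm3342 mutants at 1 year and wild types at 1 year. All groups share the strain background C57Bl/6J and the label male. The submitters present this mutant as a possible mouse model for serous detachment of the retina, a condition with fluid between retina and RPE. Which gene carries the mutation, and in which cells it acts, is not in the labels, and the genotype labels could therefore not be checked against a targeted gene. Retina and RPE of both eyes went into 1 RNA sample, and no level can be assigned to one of the tissues. In such bulk RNA, fewer cells of a type and less RNA per cell cannot be told apart.

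Chemokines are small secreted proteins that steer the migration of leukocytes. A cell senses them through receptors coupled to G proteins, and many ligands share a receptor: Ccl2, Ccl7 and Ccl12 act on monocytes through Ccr2, Cxcl1, Cxcl2 and Cxcl5 act on neutrophils through Cxcr2, and Cxcl9 and Cxcl10 act on activated T cells through Cxcr3. Atypical receptors bind chemokines without the usual signal and so take them up or carry them. In the eye, microglia, Müller glia, the RPE and cells of the choroid are known sources of these ligands.

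The promoters of 4 ligands that the results turn on are shown first, from RefSeq with coordinates of build GRCm38.p6, each running from 250 bases before the annotated start to 50 bases after it, 5′ to 3′ on the strand of the gene. They are Cxcl10 (chr5:92348840-92349139, minus strand), Ccl12 (chr11:82101595-82101894, plus strand), Ccl8 (chr11:82114935-82115234, plus strand) and Ccl28 (chr13:119623569-119623868, plus strand). Cxcl10, Ccl12 and Ccl8 were higher in the mutants at 1 month, and Ccl28 was higher in the mutants at 1 year. Capitals mark every match, on either strand, to the NF-kappaB consensus and to an interferon-type repeat (GAAA, any 2 bases, GAAA). They also mark every match to the TATA box TATAAA on the strand of the gene.
Cxcl10: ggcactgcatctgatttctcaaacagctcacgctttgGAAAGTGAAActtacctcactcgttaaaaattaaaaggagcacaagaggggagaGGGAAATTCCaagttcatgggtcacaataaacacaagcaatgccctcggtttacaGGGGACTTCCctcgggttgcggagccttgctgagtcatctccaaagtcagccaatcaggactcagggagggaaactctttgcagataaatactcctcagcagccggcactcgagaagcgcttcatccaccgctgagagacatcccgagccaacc
Ccl12: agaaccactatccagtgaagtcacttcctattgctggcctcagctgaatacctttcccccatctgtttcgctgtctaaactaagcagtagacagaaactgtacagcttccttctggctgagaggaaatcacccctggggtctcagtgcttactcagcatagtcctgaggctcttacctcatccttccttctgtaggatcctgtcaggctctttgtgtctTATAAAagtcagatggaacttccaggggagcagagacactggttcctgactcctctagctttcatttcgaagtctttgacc
Ccl8: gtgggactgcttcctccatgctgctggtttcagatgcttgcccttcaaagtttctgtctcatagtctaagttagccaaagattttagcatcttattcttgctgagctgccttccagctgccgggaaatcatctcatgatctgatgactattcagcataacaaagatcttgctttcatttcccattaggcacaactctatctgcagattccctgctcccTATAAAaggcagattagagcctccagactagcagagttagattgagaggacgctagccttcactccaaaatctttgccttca
Ccl28: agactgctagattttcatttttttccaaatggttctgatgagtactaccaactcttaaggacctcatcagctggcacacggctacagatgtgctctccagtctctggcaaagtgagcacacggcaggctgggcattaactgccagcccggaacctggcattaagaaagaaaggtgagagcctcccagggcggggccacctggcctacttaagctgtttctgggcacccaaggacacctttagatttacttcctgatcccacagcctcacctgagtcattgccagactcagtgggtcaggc
The Cxcl10 window held that repeat 213 to 204 bases before the start, and 2 matches to the NF-kappaB consensus, GGGAAATTCC at 159 to 150 bases and GGGGACTTCC at 104 to 95 bases. Ccl12 had a TATA box 31 to 26 bases before the start and Ccl8 had one at 32 to 27 bases, while the Ccl28 window held none of the 3 motifs. No marked match overlapped another. Promoters were found for 26 of the 36 genes. Among these, with strands searched as above, the NF-kappaB consensus stood in 6, the repeat in 3 and the TATA box in 8. Of all 32851 promoters of that length, 8.46% held the NF-kappaB consensus, 3.44% the repeat and 8.32% the TATA box. Such matches describe letters and do not show binding.

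Levels are given as the log2 of the signal over the 75th percentile of the array, so a level of 0 is that percentile, and levels of different genes are not compared because they come from different probes. Between 82.1% and 89.6% of an array's non-control spots were marked well above background, and 0 to 2 were saturated. The 75th percentile was 603 on the dimmest array and 994 on the brightest. Precision is limited by having 4 arrays in a group. Markers of both labelled tissues gave signal. The summed level of 10 rod genes lay between 10.1 and 10.6 on the 16 arrays. That of 7 tested RPE genes lay between 6.64 and 7.77, although Best1 of the RPE list was not tested. Markers of other tissue gave signal too. Their summed levels ran from 0.73 to 10.5 for 5 lens genes and from 3.57 to 9.36 for 6 cornea and conjunctiva genes. They ran from 6.56 to 8.04 for 8 fibroblast genes, from 8.07 to 8.68 for 4 gland genes and from 3.13 to 6.64 for 4 muscle genes. The sex label did not hold on 3 arrays. Replicates 2 and 3 of the 1-month mutants, and replicate 1 of the 1-year mutants, had Xist levels of -0.38 to -0.03 and Ddx3y levels of -8.47 to -8.12, a female pattern, and results are given with and without them. The 16 arrays lay on 2 slides, each with 2 arrays of every group, so values within each slide are given too. On slide 2 all mutant arrays lay in one row and all wild-type arrays in the other, so row and genotype cannot be told apart there.

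Of the 36 genes, 32 entered the test, which required a mark of well above background on 4 or more of the 16 arrays. Ccl20, a ligand of Ccr6, Ccl22, a ligand of Ccr4, and the receptor Ccr1 were well above background on 0 of 16 arrays. Cxcl2 was well above background on 3 of 16 arrays. A gene was called at a limma adjusted p under 0.05, with Benjamini-Hochberg adjustment over all 19022 genes tested.

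At 1 month the mutant retina and RPE held more RNA of a set of CC and CXC ligands, and 0 of 7 receptors were called. Of the 32 genes tested, 7 were called, all higher in the mutants: the CC ligands Ccl7, Ccl8, Ccl11, Ccl12 and Ccl24 and the CXC ligands Cxcl5 and Cxcl10. These 7 make 21.9% of the genes tested, where 2.72% of all genes were called, 2.03% higher and 0.694% lower. Their log2 changes ran from 1.11 to 2.18. With normexp background correction they ran from 0.37 (Ccl7) to 1.01 (Cxcl5), and 3 were called (Ccl11, Ccl12 and Cxcl5), where 2.07% of all genes were. The median change of all 32 was 0.22, against 0.02 over all genes tested, and 20 of the 32 had a positive change, where 54% of all genes did. At an unadjusted p under 0.05 there were 14, where 15.2% of all genes passed.

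Ccl12, a mouse ligand of Ccr2 that attracts monocytes, had levels of -2.21, -3.17, -2.84 and -2.59 in the 1-month mutants, against -4.11, -4.17, -4.16 and -3.77 in the 1-month wild types. All mutant arrays lay above all wild-type arrays. The log2 change was 1.35 ± 0.22 (SE), a 2.55-fold higher signal (limma adjusted p = 0.00562), and it was 1.26 on slide 1 and 1.44 on slide 2. Ccl7, which also acts through Ccr2, had levels of -4.23, -4.47, -5.63 and -4.22 in the mutants, against -7.66, -5.82, -6.14 and -6.24 in the wild types. The groups did not overlap, with mutant replicate 3 nearest to the wild types. Only 1 of the 4 wild-type arrays was well above background for Ccl7, so the lower side of its log2 change of 1.83 ± 0.39 is poorly measured (3.55-fold, limma adjusted p = 0.0226, 2.39 on slide 1 and 1.27 on slide 2). Ccl8, a mouse ligand of Ccr8, had levels of -3.30, -3.65, -3.53 and -3.55 in the mutants, against -4.44, -4.89, -5.09 and -5.43 in the wild types. The 4 mutant arrays were close together and all above the wild types. The log2 change of Ccl8 was 1.45 ± 0.27, or 2.73-fold (limma adjusted p = 0.0120), and it was 1.06 on slide 1 and 1.84 on slide 2.

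The eotaxins Ccl11 and Ccl24, which attract eosinophils through Ccr3, were both higher. Ccl11 had levels of -3.22, -2.92, -3.41 and -3.38 in the 1-month mutants, against -4.43, -4.0, -4.97 and -3.97 in the 1-month wild types. The groups did not overlap. The log2 change of Ccl11 was 1.11 ± 0.20, or 2.16-fold (limma adjusted p = 0.00937), with 1.06 on slide 1 and 1.15 on slide 2. Ccl24 had levels of -4.25, -4.21, -4.30 and -3.75 in the mutants, against -4.76, -5.35, -5.63 and -5.72 in the wild types. Here too every mutant array was above every wild-type array. The log2 change of Ccl24 was 1.24 ± 0.26, or 2.36-fold (limma adjusted p = 0.0199), with 1.07 on slide 1 and 1.40 on slide 2.

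Cxcl5, a neutrophil attractant, had levels of -2.95, -3.68, -2.13 and -3.16 in the 1-month mutants, against -4.74, -4.76, -4.83 and -6.32 in the 1-month wild types. Replicate 3 was the highest mutant array and replicate 4 the lowest wild-type array by a wide margin, and the groups did not overlap. The log2 change was 2.18 ± 0.43, or 4.54-fold (limma adjusted p = 0.0154), with 1.33 on slide 1 and 3.04 on slide 2. Cxcl10, a ligand induced by interferons, had levels of -2.06, -2.66, -2.75 and -2.32 in the mutants, against -3.97, -3.83, -4.62 and -4.23 in the wild types. The mutant arrays lay over 1 log2 unit above the highest wild-type array. For Cxcl10 the log2 change was 1.72 ± 0.35, or 3.29-fold (limma adjusted p = 0.0177), with 1.41 on slide 1 and 2.02 on slide 2.

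**Figure D1:**
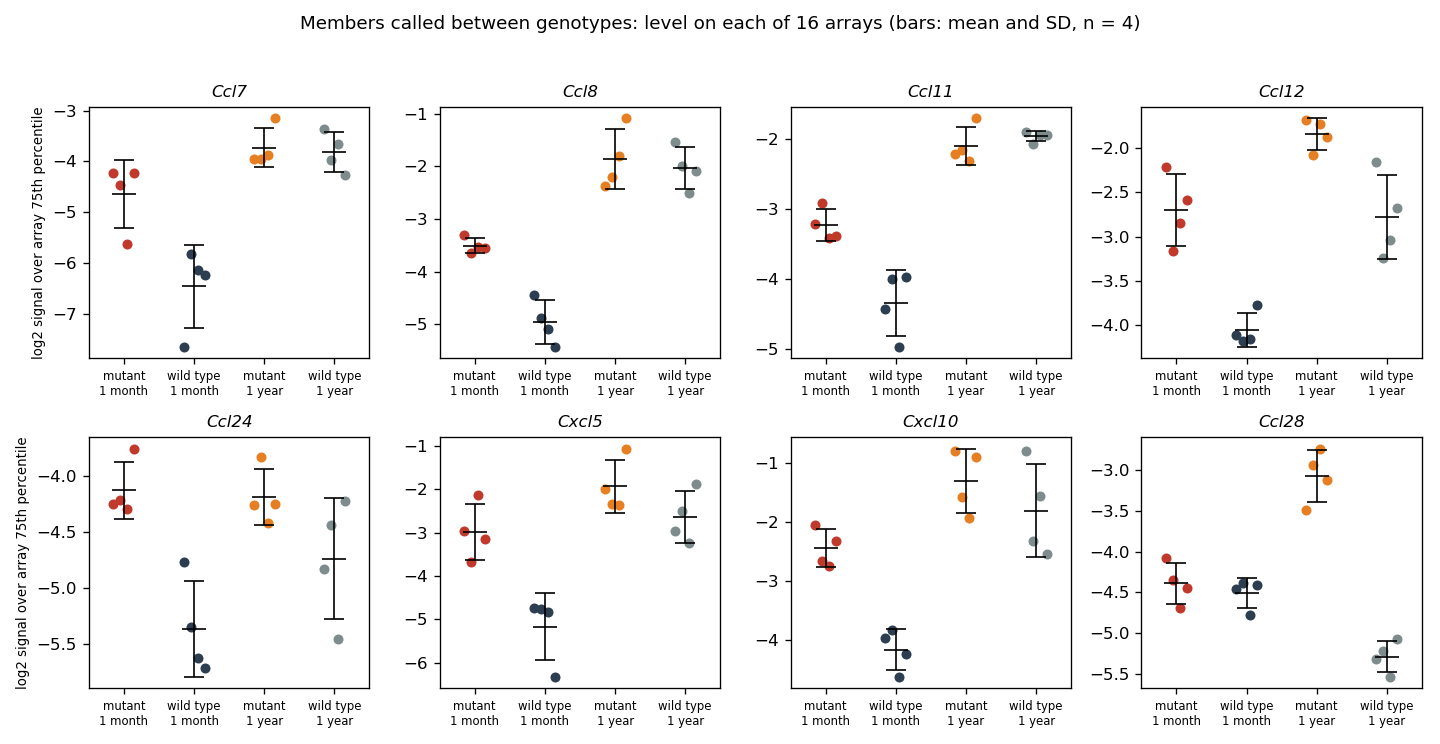
Level of the 8 genes called between genotypes on each of the 16 arrays, as log2 signal over the 75th percentile of the array (y axis), by group (x axis, mutant left of wild type at each age); points are arrays, bars the mean and SD of 4. The 7 genes called at 1 month have all 4 mutant arrays above all 4 wild-type arrays at 1 month, and Ccl28 has this at 1 year, with levels of -3.49 to -2.74 in the mutants against -5.53 to -5.08 in the wild types.

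Without the 3 arrays of female pattern, 3 genes were called at 1 month, where 0.699% of all genes were: Ccl7 (log2 change 2.24, limma adjusted p = 0.0464), Ccl12 (1.65, adjusted p = 0.0172) and, not among the 7, Ccl3. The other 5 of the 7 had changes of 1.04 for Ccl11, 1.36 for Ccl24, 1.53 for Ccl8, 1.98 for Cxcl10 and 2.11 for Cxcl5, with adjusted p-values of 0.0771 to 0.131 from a comparison with 2 mutant arrays. With the sex pattern as a covariate on all 16 arrays, 5 of the 7 were called, where 1.28% of all genes were, without Cxcl5 (limma adjusted p = 0.0552) and Cxcl10 (limma adjusted p = 0.0588). With 2 arrays of each group, 0 of the 7 genes were called within slide 1 alone and 0 within slide 2 alone, where 0.00526% and 0.0894% of all genes were called.

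A pair of macrophage inflammatory proteins, Ccl3 and Ccl4, which attract monocytes and T cells, also had separate groups and a fold of at least 2 without being called. Ccl3 had levels of -4.60, -5.45, -0.59 and -4.42 in the 1-month mutants, against -6.00, -5.47, -5.69 and -5.99 in the 1-month wild types. Mutant replicate 3 stood far above the rest, and mutant replicate 2 was next to the wild types. The log2 change of Ccl3 was 2.02 ± 0.72 (limma adjusted p = 0.182), with 0.80 on slide 1 and 3.24 on slide 2, which holds replicate 3. Ccl4 had levels of -3.12, -3.54, -1.74 and -3.37 in the mutants, against -3.82, -3.85, -3.82 and -4.65 in the wild types. Replicate 3 was again the highest mutant array and replicate 4 the lowest wild-type array. For Ccl4 the log2 change was 1.09 ± 0.32 (limma adjusted p = 0.0965). Without the arrays of female pattern, of which replicate 3 is one, the change of Ccl3 was 1.28 (limma adjusted p = 0.0253) and that of Ccl4 was 0.79 (limma adjusted p = 0.235).

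The same mutant replicate was high in further genes of inflammation. Cxcl2, a neutrophil attractant, had levels of -6.43, -8.18, -2.53 and -5.92 in the 1-month mutants, where 2 of 4 arrays were well above background, against -6.15, -6.39, -6.68 and -7.72 in the 1-month wild types, where none was. The bound for the mutant mean of Cxcl2 over the wild types was 1.52-fold, and it rests on replicate 3. The other mutant arrays ran from -8.18 to -5.92, against -7.72 to -6.15 in the wild types, and the groups overlapped. Il1b, a cytokine that induces chemokines, had levels of -3.38, -3.56, 0.61 and -3.25 in the mutants, against -3.27, -3.53, -3.53 and -4.20 in the wild types (limma adjusted p = 0.416). Tnf, another inducer, had -6.15, -6.41, -3.15 and -5.23 in the mutants, against -6.04, -6.31, -6.66 and -6.78 in the wild types (limma adjusted p = 0.351). Apart from replicate 3, the levels of Il1b in the mutants lay within those of the wild types or close to them. The neutrophil marker S100a8 had levels of -3.52, -3.59, -0.14 and -2.63 in the mutants, against -4.67, -6.28, -6.19 and -5.78 in the wild types. Replicate 3 again led S100a8, whose log2 change was 3.26 ± 0.71 (limma adjusted p = 0.0247).

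**Figure D2:**
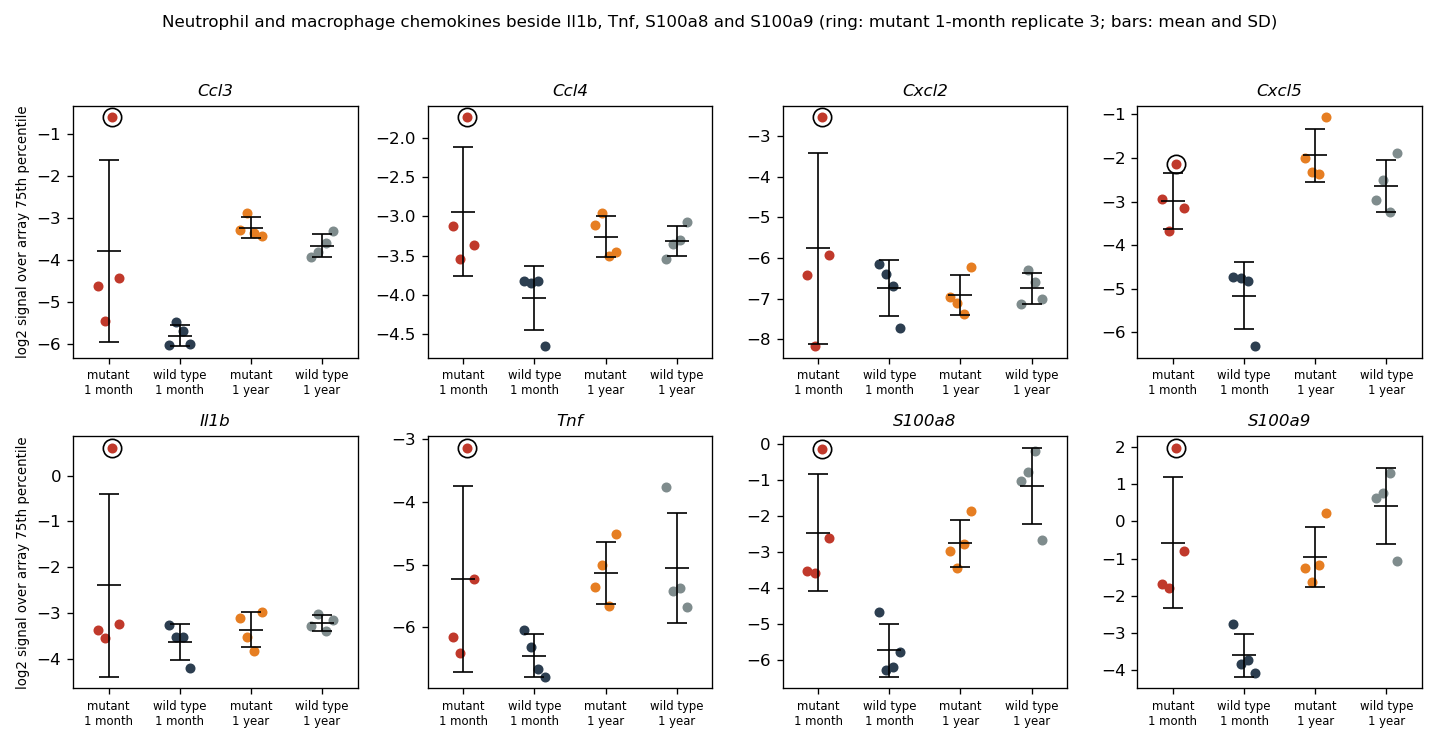
Level of 4 neutrophil or macrophage chemokines (top) and of Il1b, Tnf, S100a8 and S100a9 (bottom) on each array, as log2 signal over the 75th percentile of the array (y axis), by group (x axis); bars are the mean and SD of 4 and a ring marks mutant 1-month replicate 3. The ringed array is the highest 1-month mutant array in all 8 panels, at -0.59 for Ccl3 and 0.61 for Il1b. Cxcl2, Il1b, Tnf and S100a8 were chosen after their values were seen, so the panels do not test how widely that array is high.

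Over the 32 genes, the 4 mutant arrays lay apart from the 4 wild-type arrays at 1 month in 12, where 8.53% of all genes did so. They lay higher in 11 (5.85% of all genes) and lower in 1 (2.69% of all genes). Beside the 9 genes above these were Ccl6 and Ccl9, ligands of Ccr1 made by myeloid cells, with log2 changes of 0.27 (limma adjusted p = 0.396) and 0.26 (limma adjusted p = 0.109). The gene that lay lower was Ccl17, a ligand of Ccr4. It had levels of -3.23, -3.20, -2.98 and -2.66 in the mutants, against -2.22, -2.45, -2.58 and -2.46 in the wild types. For Ccl17 the log2 change was -0.59 ± 0.15 (limma adjusted p = 0.0562), and it was -0.59 on slide 1 and -0.58 on slide 2. In the authors' deposited log2 matrix, which is quantile normalized, Ccl17 was called lower (-0.52, limma adjusted p = 0.0236).

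The run of neighbouring genes on chromosome 11 did not move as one. In gene order Ccl2, Ccl7 and Ccl11 follow each other, then 1 predicted gene, then Ccl12 and Ccl8, and 4 of the 7 genes called at 1 month lie in this run. Ccl2, the best known attractant of monocytes and the neighbour of Ccl7, had levels of -2.90, -3.11, -3.40 and -2.80 in the 1-month mutants, against -3.02, -2.77, -2.98 and -2.75 in the 1-month wild types. The groups overlapped, with a log2 change of -0.17 ± 0.20 and a 95% interval of -0.60 to 0.26 (limma adjusted p = 0.749). Ccl5, Ccl9, Ccl6, Ccl3 and Ccl4 lie in a second cluster further along the chromosome, and 0 of these 5 were called. On chromosome 5, Cxcl5 was called, and Cxcl1, also a ligand of Cxcr2 and 4 genes away, had a change of 0.67 ± 0.28 (limma adjusted p = 0.260). Cxcl10 was called and Cxcl9, separated from it by 1 gene, gave a value that depends on the probe.

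Cxcl9, which like Cxcl10 is induced by interferon and binds Cxcr3, has 2 probes that differed. The brighter probe had a log2 change of -0.04 ± 0.24 at 1 month (limma adjusted p = 0.966). The dimmer probe was well above background on 3 of 4 mutant 1-month arrays and on 0 of 4 wild-type arrays, with levels of -4.64, -6.28, -5.52 and -5.67 in the mutants, against -7.48, -7.41, -8.37 and -8.86 in the wild types. By this probe Cxcl9 was at least 1.80-fold higher in the 1-month mutants (limma adjusted p over all named probes = 0.126). At 1 year the dimmer probe went the other way: its levels were -6.55, -8.66, -8.30 and -6.37 in the mutants, with 0 arrays well above background, against -3.29, -6.65, -3.54 and -6.64 in the wild types, with 2. The groups overlapped at 1 year and the difference was not called (limma adjusted p = 0.212). The bound for the wild-type mean over the mutant mean was 2.81-fold, and it rests on the 2 wild-type arrays at -3.29 and -3.54. Cxcl12, the ligand of Cxcr4, also has 2 probes. The brighter one had a log2 change of 0.49 ± 0.18 (limma adjusted p = 0.207) at 1 month, and the other had 0.62 ± 0.11 (limma adjusted p over all named probes = 0.00958), with levels of -0.08, -0.33, -0.04 and -0.23 in the mutants, against -0.99, -0.72, -0.99 and -0.47 in the wild types. On that second probe the groups did not overlap. The probes of Ccl19 (3) and of Ccl25 (2) gave no call in any comparison, and Ccl19 has near-identical copies in the mouse genome, so the source of its signal is uncertain.

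The other CC and CXC ligands were not called at 1 month. Ccl5, Ccl19, Ccl25 and Ccl28 had log2 changes of -0.39 to 0.11. Cxcl13, which draws B cells, Cxcl14, Cxcl16, the mucosal ligand Cxcl17 and Cx3cl1, the membrane-bound ligand of Cx3cr1 on microglia, had changes of -0.11 to 0.69. For Cx3cl1 the change was 0.18 ± 0.10, with an interval of -0.04 to 0.39.

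Of the 7 receptors tested among the 36 genes, 0 were called between genotypes at either age. The log2 changes of the 5 signalling receptors tested ran from -0.45 to 0.00 at 1 month, with a median of -0.15. Ccr7, which guides dendritic cells and T cells, had -0.45 ± 0.17 (limma adjusted p = 0.213). Its levels were -1.02, -0.99, -0.85 and -0.41 in the 1-month mutants, against -0.07, -0.52, -0.58 and -0.31 in the 1-month wild types, so the groups overlapped through mutant replicate 4. The receptor of the monocyte attractants, Ccr2, had a change of 0.00 with an interval of -0.33 to 0.33. Cxcr2, the receptor of Cxcl5, had -0.15 (interval -0.67 to 0.38), Cxcr3, the receptor of Cxcl10, had -0.25 (interval -0.77 to 0.27), and Cxcr4 had -0.03 (interval -0.30 to 0.25). The atypical receptors Ackr1, which carries chemokines across venules, and Ackr3, which takes up Cxcl12, had changes of 0.04 (interval -0.12 to 0.20) and 0.31 (interval -0.11 to 0.73).

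**Figure D3:**
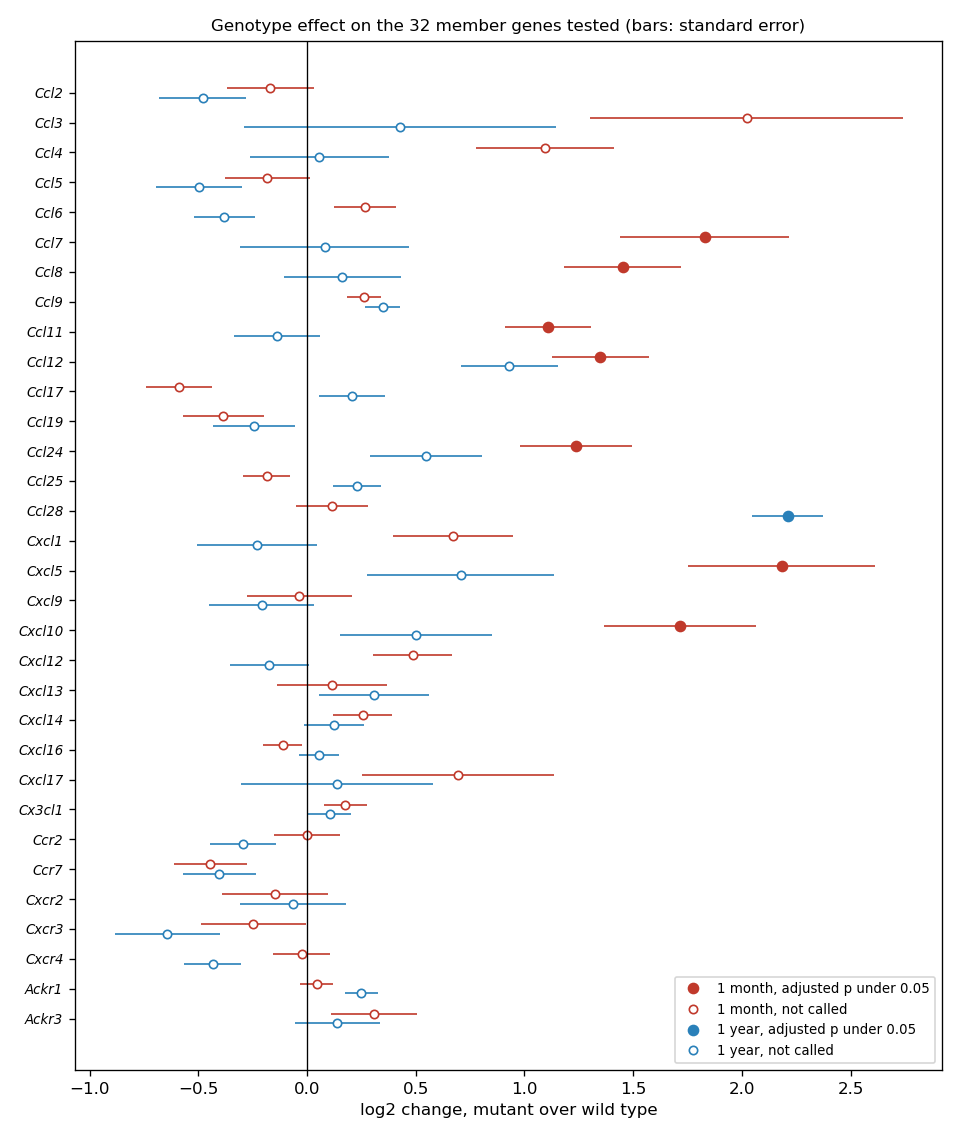
Log2 change of mutant over wild type (x axis) for each of the 32 genes tested (y axis) at 1 month (red) and 1 year (blue); bars are standard errors and filled points have a limma adjusted p under 0.05. The 7 filled red points lie between 1.11 and 2.18, the single filled blue point is Ccl28 at 2.21, and the 5 signalling receptors lie between -0.64 and 0.00 at both ages.

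Other genes of the pathway, from lists chosen with earlier results of these data known, moved in part at 1 month. Of 17 further chemokines and receptors tested, 1 was called, Pf4, a platelet and macrophage chemokine, with a log2 change of 1.28 ± 0.20 (limma adjusted p = 0.00412). Of 17 inducers, 1 was higher and 1 was lower, and the lower one was Nfkbia, the inhibitor of NF-kappaB (-0.49 ± 0.11, limma adjusted p = 0.0343). Of 20 genes of receptor signalling, 2 were higher, among them Vav1 (0.59 ± 0.11, limma adjusted p = 0.0148). Of 11 genes of leukocyte adhesion, 3 were higher, among them Selplg (0.62) and Icam2 (0.56). The G protein subunits that the receptors use were not called, with changes of 0.34 ± 0.09 for Gnai2 (limma adjusted p = 0.0697) and 0.00 for Gnai3 (interval -0.29 to 0.30). The cytokine Il1a had 0.63 ± 0.85 (limma adjusted p = 0.791) and Icam1 had 0.34 ± 0.15 (limma adjusted p = 0.308).

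Markers of myeloid and of neighbouring tissue moved in the same comparison. Of 11 tested markers of microglia and macrophages, 5 were higher in the 1-month mutants (Csf1r 0.73, Aif1 1.03, Adgre1 1.09, Laptm5 0.86, Itgax 1.04). The mean level of that list was -0.61 ± 0.10 in the mutants and -1.23 ± 0.08 in the wild types (SD, n = 4), the summed level ran from 6.57 to 7.28 in the mutants and from 6.56 to 7.47 in the wild types, and Cd68 was not tested. Of 6 markers of perivascular and alternatively activated macrophages, 3 were higher (Retnla 2.70, F13a1 0.73, Mrc1 0.81), with a summed level of 0.90 to 1.30 in the mutants and of -0.03 to 0.51 in the wild types. Of 8 neutrophil markers 2 were higher, S100a8 and S100a9, and Ly6g and Ngp were not tested. The mean level of the neutrophil list was -0.95 ± 0.79 in the mutants and -2.06 ± 0.23 in the wild types (SD, n = 4). Its summed level, to which bright probes add most, was 8.17 to 8.31 in the mutants and 8.26 to 8.48 in the wild types. Of 8 fibroblast markers of choroid and sclera 3 were higher (Col3a1 2.35, Postn 1.78, Lum 1.17), with a summed level of 7.27 to 7.75 in the mutants and of 6.59 to 7.13 in the wild types. Of 8 pigment cell markers 5 were higher, with a summed level of 7.52 to 8.08 in the mutants and of 6.72 to 7.53 in the wild types. Of 7 tested RPE markers 4 were higher, with a summed level of 7.39 to 7.77 in the mutants and of 6.64 to 7.16 in the wild types. Of 10 lymphocyte markers 0 were called, and 3 had an unadjusted p under 0.05. Of 2 tested erythrocyte markers 0 were called, 2 had an unadjusted p under 0.05, and the median change was 2.29. Their mean level was 1.67 ± 2.02 in the mutants and -0.62 ± 0.77 in the wild types (SD, n = 4). Of 5 tested monocyte markers 1 was higher, with 2 positive and 3 negative changes and a median of -0.009. Of 4 muscle markers 1 was higher (median change 0.75), as was 1 of 10 endothelium markers (median change 0.21). The part of these cell types in the higher ligands was not tested.

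**Figure D4:**
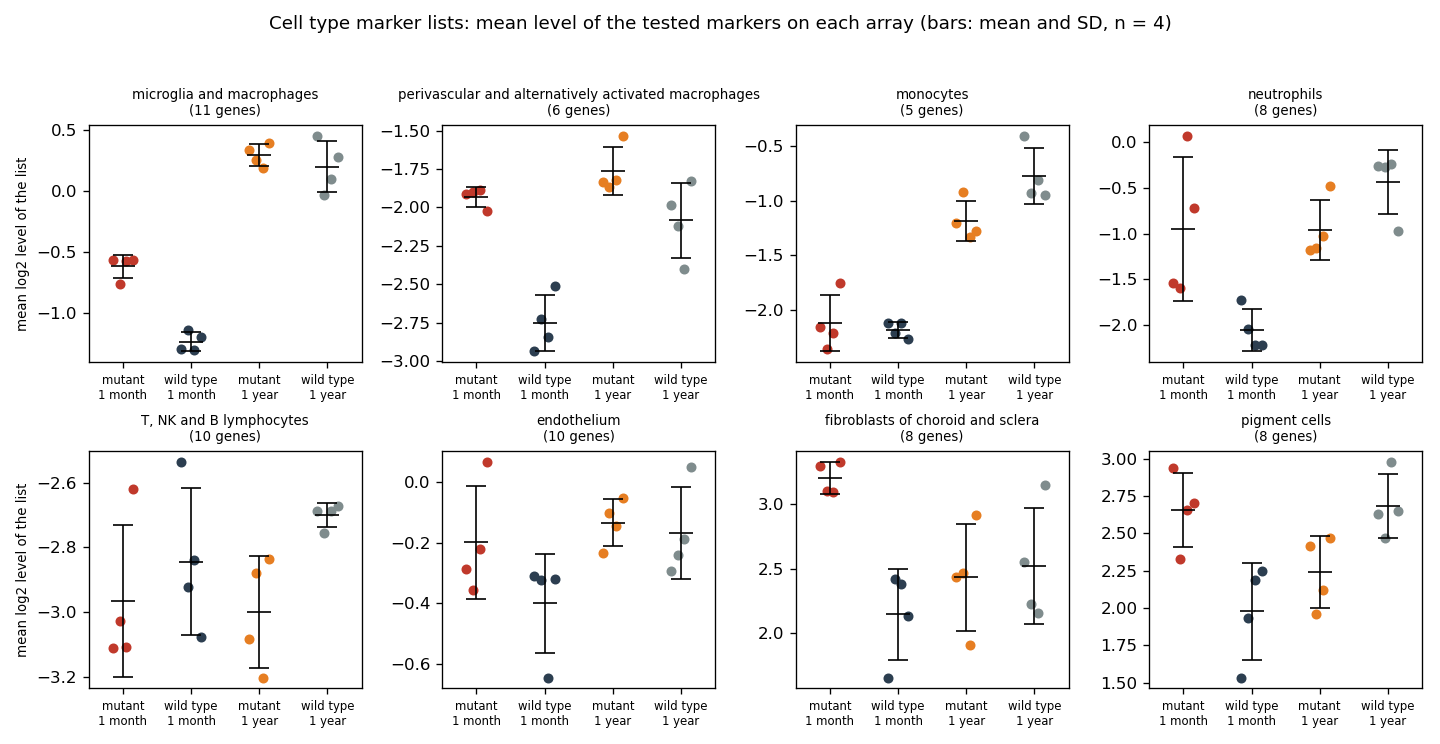
Mean log2 level of the tested markers of 8 cell types on each array (y axis, over the 75th percentile of the array), by group (x axis); points are arrays, bars the mean and SD of 4. At 1 month the mutant arrays lie above the wild-type arrays for microglia and macrophages (-0.61 against -1.23 on average) and for perivascular macrophages (-1.93 against -2.75). They also do so for neutrophils (-0.95 against -2.06), fibroblasts (3.20 against 2.15) and pigment cells (2.65 against 1.98). The groups overlap for monocytes, lymphocytes and endothelium.

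At 1 year a single gene was called between genotypes, Ccl28, which was higher in the mutants. It is 1 of 32 genes, where 0.857% of all genes were called, 0.61% higher and 0.247% lower. Ccl28 is made by epithelia of mucosa and glands and acts on cells with Ccr10 or Ccr3. Its levels were -3.49, -2.94, -2.74 and -3.13 in the 1-year mutants, against -5.32, -5.21, -5.53 and -5.08 in the 1-year wild types. Every mutant array lay more than 1 log2 unit above every wild-type array. The log2 change was 2.21 ± 0.16, a 4.63-fold higher signal (limma adjusted p = 3.64e-06), with 2.53 on slide 1 and 1.89 on slide 2. Without the arrays of female pattern it was 2.35 (limma adjusted p = 2.32e-05), and with normexp background correction it was 1.00 (limma adjusted p = 1.69e-05). At 1 month the levels of Ccl28 were -4.08, -4.35, -4.68 and -4.44 in the mutants, against -4.45, -4.38, -4.77 and -4.41 in the wild types, so the groups overlapped there (0.11 ± 0.16, limma adjusted p = 0.803). Its receptors did not show a call: Ccr10 had a change of 0.07 ± 0.21 and Ccr3 of -0.32 ± 0.18 at 1 year.

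The effect of genotype on Ccl28 differed between ages by its own test, with a difference of 2.10 ± 0.23 (limma adjusted p = 0.00111), made of 2.21 at 1 year and 0.11 at 1 month. It was the single one of the 32 genes called for this difference, where 0.421% of all genes were called, 0.142% higher and 0.279% lower. Within slides, slide 1 gave 2.51 and slide 2 gave 1.68, neither called with 2 arrays per group, and without the arrays of female pattern it was 2.11 (limma adjusted p = 0.00503). Epithelial markers stood as follows at 1 year. The summed level of 6 cornea and conjunctiva markers ran from 5.98 to 9.36 in the mutants and from 3.57 to 8.50 in the wild types, and that of 4 gland markers from 8.26 to 8.68 in the mutants and from 8.15 to 8.54 in the wild types, with 0 of either list called. The 7 tested RPE markers had a summed level of 7.26 to 7.66 in the 1-year mutants and of 7.19 to 7.68 in the 1-year wild types, with 0 called. The part of these tissues in the level of Ccl28 was not tested.

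The 7 genes called at 1 month were not called at 1 year. Ccl12 came nearest, with levels of -1.69, -2.09, -1.74 and -1.88 in the 1-year mutants, against -2.16, -3.24, -3.04 and -2.68 in the 1-year wild types. The groups of Ccl12 did not overlap, and its log2 change was 0.93 ± 0.22 (limma adjusted p = 0.0719). Cxcl5 had levels of -1.99, -2.33, -2.36 and -1.06 in the mutants, against -2.96, -2.50, -3.24 and -1.88 in the wild types (0.71 ± 0.43, limma adjusted p = 0.596). Cxcl10 had -0.80, -1.59, -1.93 and -0.90 in the mutants, against -0.80, -2.33, -1.57 and -2.54 in the wild types (0.50 ± 0.35, limma adjusted p = 0.661). In Cxcl5 and Cxcl10 the groups overlapped. Ccl24 had -4.26, -3.83, -4.42 and -4.25 in the mutants, against -4.83, -4.44, -5.45 and -4.22 in the wild types (0.55 ± 0.26, limma adjusted p = 0.442). Ccl7 had -3.95, -3.96, -3.87 and -3.15 in the mutants, against -3.37, -3.97, -3.65 and -4.27 in the wild types (0.08 ± 0.39, limma adjusted p = 0.963). The Ccl24 and Ccl7 groups overlapped as well. Ccl8 had -2.37, -2.21, -1.80 and -1.09 in the mutants, against -1.54, -1.99, -2.51 and -2.09 in the wild types (0.16 ± 0.27, limma adjusted p = 0.871). Ccl11 had -2.22, -2.16, -2.32 and -1.70 in the mutants, against -1.89, -2.06, -1.94 and -1.94 in the wild types (-0.14 ± 0.20, limma adjusted p = 0.847). For Ccl8 the levels of both genotypes were interleaved. For Ccl11 the mutant arrays at -2.32, -2.22 and -2.16 lay below all wild-type arrays, and the one at -1.70 lay above them all.

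An effect called at 1 month and not at 1 year need not differ between ages, and for these 7 genes the difference itself was not called. It was -1.25 ± 0.28 for Ccl11 (limma adjusted p = 0.0700) and -1.29 ± 0.38 for Ccl8 (limma adjusted p = 0.179), made of -0.14 at 1 year and 1.11 at 1 month for Ccl11. For Ccl7 it was -1.75 ± 0.55 (limma adjusted p = 0.210), and for Ccl24, Cxcl5, Cxcl10 and Ccl12 it ran from -1.47 to -0.42 with adjusted p-values of 0.370 to 0.737. Of the 32 genes, 13 had an unadjusted p under 0.05 for the difference, where 10.8% of all genes did. The difference was positive in 10 of the 32, where it was positive in 46.8% of all genes, and its median was -0.31, against -0.02 over all genes tested.

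Over all 32 genes the groups lay apart at 1 year in 7, where 7.83% of all genes did so. They lay higher in 4 (Ccl9, Ccl12, Ccl28 and Ackr1; 4.39% of all genes) and lower in 3 (Ccl5, Cxcr3 and Cxcr4; 3.44% of all genes). Ccl9 had levels of -0.41, -0.43, -0.32 and -0.34 in the 1-year mutants, against -0.55, -0.68, -0.83 and -0.83 in the 1-year wild types. The shift of Ccl9 was small and tight, 0.35 ± 0.08 (limma adjusted p = 0.0545). Cxcr4 had levels of -3.25, -3.20, -3.02 and -2.98 in the mutants, against -2.81, -2.54, -2.40 and -2.97 in the wild types, and its log2 change was -0.43 ± 0.13 (limma adjusted p = 0.165). Cxcr3 had -4.74, -4.35, -4.79 and -4.54 in the mutants, against -3.86, -3.74, -4.11 and -4.14 in the wild types (-0.64 ± 0.24, limma adjusted p = 0.301). The 5 signalling receptors tested had log2 changes of -0.64 to -0.06, with a median of -0.40, and 0 of the 5 were called. At an unadjusted p under 0.05 there were 3 of these 5, and 10 of all 32 genes, where 11.4% of all genes passed. A positive change was seen in 19 of the 32, where 47.2% of all genes had one. The median change of the 32 genes at 1 year was 0.09, against -0.01 over all genes tested.

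Of the pathway lists at 1 year, Cx3cr1, the receptor of Cx3cl1 on microglia, was the single gene called. Its levels were -0.03, 0.13, 0.54 and 0.24 in the 1-year mutants, against -0.34, -0.91, -1.14 and -0.27 in the 1-year wild types. The groups of Cx3cr1 did not overlap (0.89 ± 0.19, limma adjusted p = 0.0497), and its 1-month change was 0.74 ± 0.19 (limma adjusted p = 0.0589). Among 17 inducers, 20 signalling genes and 11 adhesion genes 0 were called at 1 year. At an unadjusted p under 0.05 there were 1, 4 and 2. Of 11 microglia and macrophage markers 1, the same Cx3cr1, was called, with a summed level of 6.57 to 7.10 in the mutants and of 6.64 to 7.07 in the wild types.

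With age, 7 of the 25 ligands tested were called in the mutants, all higher, and 12 in the wild types, 10 higher and 2 lower. Of the 32 genes, 7 were called in the mutants at 1 year against 1 month, all higher, where 6.7% of all genes were called, 3.77% higher and 2.93% lower. In the wild types 15 were called, 12 higher and 3 lower, where 12.4% of all genes were called, 7.31% higher and 5.05% lower. The wild-type age comparison and the genotype comparison at 1 month share the wild-type 1-month arrays, so a low level on those arrays enters both, and the values are given side by side with no test of their likeness. Arrays of 1 year and 1 month lay apart in 12 of the 32 genes in the mutants, all higher, where 13.8% of all genes did so, 7.41% higher and 6.4% lower. In the wild types they lay apart in 19, where 18.9% of all genes did so. They lay higher in 15 (9.17% of all genes) and lower in 4 (9.71% of all genes). A positive change was seen in 22 of the 32 genes in the mutants, where 40.2% of all genes had one, and in 22 in the wild types, where 44.7% did. An unadjusted p under 0.05 was seen in 14 genes in the mutants, where 21% of all genes passed, and in 22 in the wild types, where 26.4% passed.

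Ccl8 was higher at 1 year by 1.64 ± 0.27 in the mutants (limma adjusted p = 0.00189) and by 2.93 ± 0.27 in the wild types (7.61-fold, limma adjusted p = 6.06e-06), from the levels given above. Ccl11 had 1.13 ± 0.20 in the mutants (limma adjusted p = 0.00285) and 2.38 ± 0.20 in the wild types (5.21-fold, limma adjusted p = 2.34e-06). Ccl12 had 0.86 ± 0.22 in the mutants (limma adjusted p = 0.0338) and 1.27 ± 0.22 in the wild types (limma adjusted p = 0.00176). The mutant call of Ccl12 was lost with quantile normalization and with the deposited matrix (limma adjusted p = 0.0602 in each). It was also lost with sex pattern as a covariate (limma adjusted p = 0.0678), and it held in 11 of 16 fits that left out 1 array. In all 3 genes every 1-year array lay above every 1-month array of the same genotype. For Ccl7, Cxcl5 and Cxcl10 the age change passed the threshold in the wild types and not in the mutants. Ccl7 had 0.90 ± 0.39 in the mutants (limma adjusted p = 0.198) and 2.65 ± 0.39 in the wild types (limma adjusted p = 0.000407). Cxcl5 had 1.04 ± 0.43 in the mutants (limma adjusted p = 0.180) and 2.52 ± 0.43 in the wild types (limma adjusted p = 0.00141). Cxcl10 had 1.14 ± 0.35 in the mutants (limma adjusted p = 0.0683) and 2.36 ± 0.35 in the wild types (limma adjusted p = 0.000445). The test of whether an age change differs between genotypes is the one given above for the genotype effects, and it called none of the 3. Without the arrays of female pattern, 3 of the 7 genes called with age in the mutants were called, Ccl8, Ccl11 and Ccl28, and Ccl3 was added, where 1.45% of all genes were called. With normexp background correction the changes of the 7 ran from 0.22 (Ccl9) to 1.06 (Ccl8), and 4 were called, without Ccl9, Ccl12 and Cxcl1, where 5.91% of all genes were. The 12 higher in the wild types ran from 0.24 (Cxcr3) to 1.49 (Ccl8) with that correction.

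Ccl2 was higher with age in both genotypes and was not called between genotypes at either age. Its levels were -2.17, -2.05, -2.09 and -1.93 in the 1-year mutants, and -1.46, -1.48, -1.09 and -2.30 in the 1-year wild types. All of these lie above the 1-month levels of Ccl2 given above. The age change was 0.99 ± 0.20 in the mutants (limma adjusted p = 0.00780) and 1.30 ± 0.20 in the wild types (limma adjusted p = 0.000615). Cxcl1 had levels of -3.14, -3.64, -3.49 and -2.70 in the mutants at 1 year, against -4.50, -4.78, -3.83 and -3.91 at 1 month. In the wild types Cxcl1 had -2.84, -2.89, -2.78 and -3.52 at 1 year, against -4.42, -4.67, -5.22 and -5.39 at 1 month. Ages did not overlap in either genotype, and the age change was 1.01 ± 0.28 in the mutants (limma adjusted p = 0.0417) and 1.92 ± 0.28 in the wild types (limma adjusted p = 0.000370). The mutant call of Cxcl1 was lost with slide as a block (limma adjusted p = 0.0523), with the replicate block (limma adjusted p = 0.0846) and in 9 of 16 fits that left out 1 array. Ccl9 was called with age in the mutants, with 0.28 ± 0.08 (limma adjusted p = 0.0499) over 1-month levels of -0.58, -0.61, -0.76 and -0.65. The 1-year levels lay just above these, and the call is at the edge of the threshold: it was lost with slide as a block (limma adjusted p = 0.0600) and with the replicate block (limma adjusted p = 0.107). The mutant call of Ccl9 held in 1 of 13 other settings and in 4 of 16 fits that left out 1 array. In the wild types its age change was 0.19 ± 0.08 (limma adjusted p = 0.140).

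Ccl28 went opposite ways. In the mutants it was higher at 1 year by 1.31 ± 0.16 (2.49-fold, limma adjusted p = 0.000201), and in the wild types it was lower, with a log2 change of -0.78 ± 0.16 (limma adjusted p = 0.00631). In each genotype the ages did not overlap, and the difference between these changes is the 2.10 given above. With quantile normalization and in the authors' deposited matrix the wild-type change of Ccl28 was not called.

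Of the other genes called with age in the wild types, Ccl6 had levels of 0.59, 0.00, 0.12 and -0.15 at 1 year, against -0.97, -0.83, -1.04 and -0.87 at 1 month. The change of Ccl6 was 1.07 ± 0.14 (limma adjusted p = 0.000181). Cxcl12 had 2.10, 2.20, 2.0 and 2.50 at 1 year, against 1.13, 1.13, 1.39 and 1.47 at 1 month (0.92 ± 0.18, limma adjusted p = 0.00396). The second probe of Cxcl12 had 1.18 ± 0.11 (limma adjusted p over all named probes = 7.01e-06). The 2 receptors called higher, Cxcr4 and Cxcr3, were separate at the 2 ages, each by a small gap, while the receptor Ackr1 was called lower. Cxcr4 had the 1-year levels given above, against -3.15, -3.29, -3.18 and -3.55 at 1 month (0.61 ± 0.13, limma adjusted p = 0.00659). Cxcr3 had its 1-year levels against -5.06, -4.91, -4.21 and -5.74 at 1 month (1.02 ± 0.24, limma adjusted p = 0.0128). With normexp background correction the change of Cxcr3 was 0.24 and was not called (limma adjusted p = 0.191). In the mutants Cxcr4 had 0.20 ± 0.13 (limma adjusted p = 0.403) and Cxcr3 had 0.62 ± 0.24 (limma adjusted p = 0.156). For the dimmer probe of Cxcl9 in the wild types, the bound for the 1-year mean over the 1-month mean was 2.54-fold (limma adjusted p over all named probes = 0.0226). This bound rests on the 2 wild-type 1-year arrays at -3.29 and -3.54, the only ones of that group well above background. The brighter probe of Cxcl9 had a change of -0.07.

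The 3 genes lower with age in the wild types were Ccl28, Ccl17 and Ackr1. Ccl17 had levels of -3.36, -2.92, -3.16 and -2.62 at 1 year, against the 1-month levels above, and the ages were separate by a narrow gap (-0.59 ± 0.15, limma adjusted p = 0.0206). With normexp background correction it was -0.37 and was not called (limma adjusted p = 0.0582). In the mutants Ccl17 had 0.21 ± 0.15 (limma adjusted p = 0.473), with levels of -2.70, -2.81, -2.91 and -2.80 at 1 year. Ackr1 had levels of 2.23, 2.13, 2.17 and 2.11 at 1 year, against 2.55, 2.43, 2.37 and 2.45 at 1 month. The ages of Ackr1 were separate, with a log2 change of -0.29 ± 0.07 (limma adjusted p = 0.0187). In the mutants it had levels of 2.42, 2.30, 2.60 and 2.31 at 1 year, against 2.55, 2.55, 2.45 and 2.43 at 1 month (-0.09 ± 0.07, limma adjusted p = 0.555). Without the arrays of female pattern, all of them mutant, the wild-type call of Ackr1 was lost (limma adjusted p = 0.0525).

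Within slides the age changes of the called genes had the same sign on both. For the 7 genes called in the mutants they ran from 0.25 (Ccl9) to 1.59 (Ccl8) on slide 1 and from 0.30 (Ccl9) to 1.69 (Ccl8) on slide 2. For the 12 genes called higher in the wild types they ran from 0.75 (Cxcr4) to 2.93 (Ccl7) on slide 1 and from 0.48 (Cxcr4) to 3.44 (Ccl8) on slide 2. For the 3 called lower, slide 1 gave -0.96 for Ccl28, -0.70 for Ccl17 and -0.34 for Ackr1, and slide 2 gave -0.61, -0.47 and -0.24 in the same order.

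**Figure D5:**
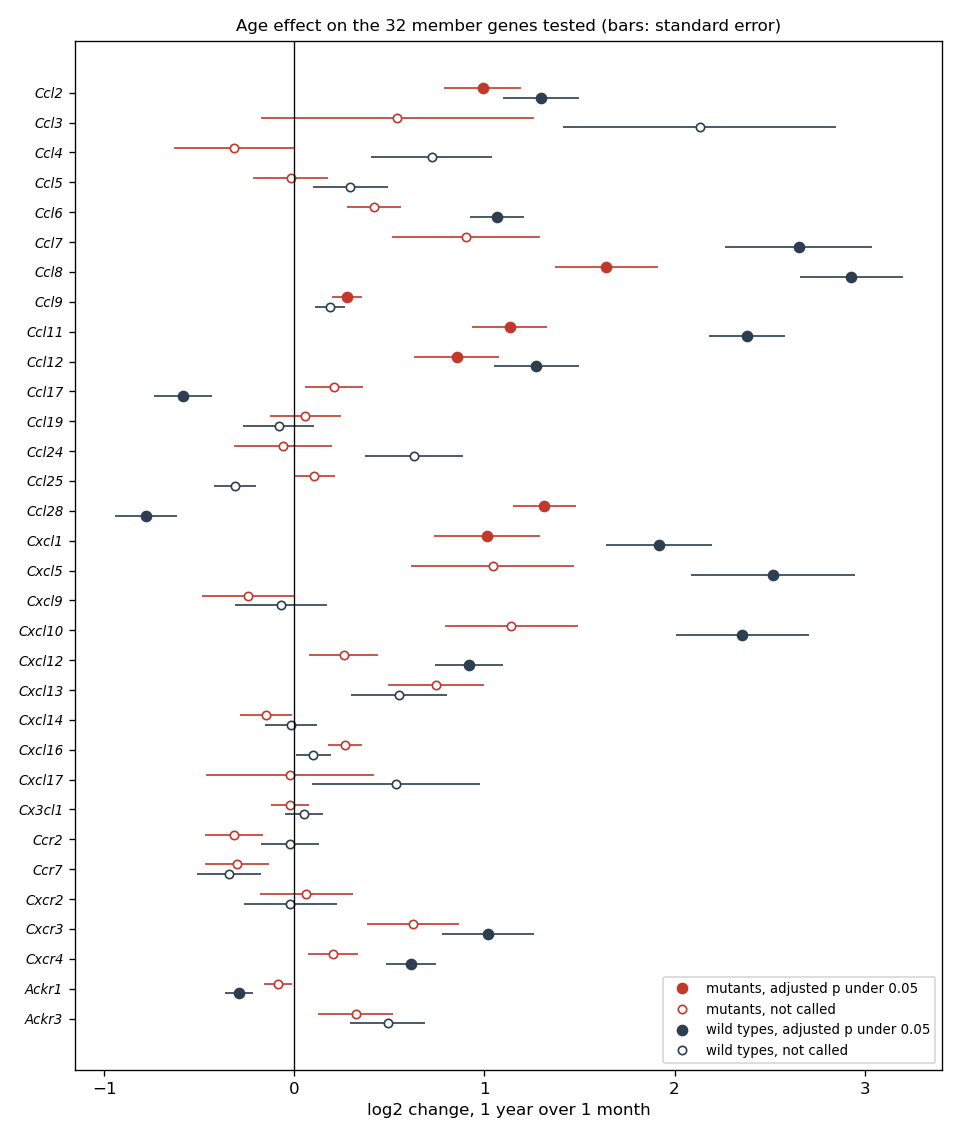
Log2 change of 1 year over 1 month (x axis) for each of the 32 genes tested (y axis) in mutants (red) and wild types (dark); bars are standard errors and filled points have a limma adjusted p under 0.05. The 7 filled red points are all above 0, the 15 filled dark points run from -0.78 to 2.93, and Ccl28 has a filled point on each side of 0.

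The 15 tested genes with no call in any comparison, with all 16 arrays and the 75th percentile scaling, were Ccl3, Ccl4, Ccl5, Ccl19, Ccl25, Cxcl9, Cxcl13, Cxcl14, Cxcl16, Cxcl17, Cx3cl1 and the receptors Ccr2, Ccr7, Cxcr2 and Ackr3. Of these, Ccl3 had an age change of 2.13 ± 0.72 in the wild types (limma adjusted p = 0.0682) and Ccl4 one of 0.72 ± 0.32 (limma adjusted p = 0.166), with every 1-year array above every 1-month array in both. Without mutant 1-month replicate 3, which is in neither group but enters the shared spread, Ccl3 (limma adjusted p = 3.13e-05) and Ccl4 (limma adjusted p = 0.0266) were called. Ccl3 was also called with quantile normalization (2.32, limma adjusted p = 0.0489), and in the mutants without that array (1.60, limma adjusted p = 0.00151).

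Pathway and cell type lists also moved with age. Icam1, which holds leukocytes on endothelium, was higher by 1.18 ± 0.15 in the mutants (limma adjusted p = 0.000286) and by 2.02 ± 0.15 in the wild types (limma adjusted p = 1.34e-06). Of 11 adhesion genes 4 were higher in the mutants and 5 in the wild types. Of 17 inducers 4 were higher in each genotype, namely Relb, Il1r1, Tnfrsf1a and Irf1. Of 20 signalling genes 5 were higher in the mutants, while in the wild types 6 were higher and 1 was lower. Of 11 microglia and macrophage markers 5 were higher in the mutants and 6 in the wild types, led by Itgax with 3.73 in the mutants and 5.24 in the wild types. The mean level of that list was 0.30 ± 0.09 in the 1-year mutants, against -0.61 ± 0.10 in the 1-month mutants, and 0.20 ± 0.21 in the 1-year wild types, against -1.23 ± 0.08 in the 1-month wild types (SD, n = 4). Of 8 neutrophil markers 4 were higher with age in the wild types and 0 in the mutants, where 1 had an unadjusted p under 0.05. Markers of eye tissue moved too. Of 10 rod markers 5 were lower with age in the mutants and 0 were called in the wild types, with a summed level of 10.1 to 10.4 in the 1-year mutants, against 10.4 to 10.6 in the 1-month mutants. Of 8 fibroblast markers of choroid and sclera 4 were lower in the mutants and 2 were higher in the wild types. Of 8 pigment cell markers 2 were lower in the mutants and 4 were higher in the wild types, and 2 of 7 RPE markers were higher in the wild types. Of 5 lens markers 3 were lower in the wild types, with a summed level of 0.73 to 6.66 in the 1-year wild types, against 9.26 to 9.74 in the 1-month wild types. The part of these cells in the age changes of the chemokines was not tested.

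Within groups, after the mean of each group was taken out, the genes most like each called gene over the 16 arrays were found by Pearson correlation, as a description in which arrays share slide, depth and tissue mix. For Ccl7 they were Ackr3 (0.805), Ccl9 (0.690) and Ccl2 (0.598). For Ccl8 they were Cxcl17 (0.643), Cxcl5 (0.535) and Cxcl1 (0.498), and for Ccl11 Cxcl16 (0.584), Ccl25 (0.465) and Cxcl17 (0.420). For Ccl12 they were Ackr3 (0.666), Cxcl10 (0.516) and Ccl9 (0.454), and for Ccl24 Ccl17 (0.696), Ccr7 (0.565) and Ccl19 (0.525). For Cxcl5 they were Ccl4 (0.655), Cxcr2 (0.652) and Ccr2 (0.609), and for Cxcl10 Ccl6 (0.668), Ccl12 (0.516) and Ccl2 (0.511). Ccl28 had no gene above 0.369, the value of Ackr1, followed by Ccl24 (0.330) and Ccl25 (0.319). Wild-type 1-month replicate 1 was the lowest of the 16 arrays for both Ccl7 (-7.66) and Ackr3 (-1.16). In that group Ccl7 was well above background on 1 of 4 arrays. The part of that array in the likeness of Ccl7 and Ackr3 was not tested.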

How the data were processed

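Values started from the spot intensity of the scanner files, which per the file headers was background-subtracted and spatially detrended with Feature Extraction, in version 11.0.1.1 per the submitters' processing notes. A matrix of log2 values was deposited as well. From its values it is quantile normalized, and the software behind that step is not given in the sources used here. Marks for outlier, saturated and well-above-background spots came from the scanner files, and the probe design refers to build mm9, per the file headers.

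From the scanner files, outlier spots were left out, intensities were put on the log2 scale, the 75th percentile of each array was subtracted and spots of a probe were averaged. Probes were named through RefSeq accessions. Those well above background on at least 4 of 16 arrays were kept, and the probe with the highest mean stood for its gene, which gave 19022 genes. Group means were fitted with limma 3.58.1 (R 4.3.3) on all 16 arrays, with 5 contrasts. Calls are two-sided at a Benjamini-Hochberg adjusted p under 0.05. Errors are standard errors for changes and SDs for group means. The labels give 4 mice per time point without tying arrays to mice, so p-values cover the spread between these samples. The model was tested on simulated data. For a probe well above background on 0 of 4 arrays of a group, the fold is a bound against the higher, per array, of its own signal and the lowest signal well above background. Other software was Python 3.11.15, pandas 2.3.3, the R package data.table in version 1.17.8, and matplotlib 3.10.9.

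Genes given in full are those called in any contrast and those with separate genotype groups and a fold of at least 2. The rest appear by role as counts, ranges or single values. Further probes of a gene appear where they differ in sign or call. From each further list come up to 4 called genes with the smallest adjusted p and the first 2 as listed, and for each gene called between genotypes the 3 most alike by correlation of values minus their group mean. Il1b, Tnf, S100a8, Cxcl2, Ccr3 and Ccr10 were chosen after their values were seen. Some called genes of the further lists are counted but not reported by name here. The genes and lists were chosen with earlier results of these data known.

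Alternatives were normexp background correction, quantile normalization, the deposited log2 matrix, other filters, every probe, slide, replicate number, sex pattern and array row as terms, single slides, and leaving out arrays. The normexp setting used the median spot intensity, because the mean intensity is not a column of the files used here.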

Additional observations from a re-analysis of the deposited data

Results flagged for a closer look

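The effect of genotype on Ccl28 differed between ages, by 2.10 on the log2 scale (limma adjusted p = 0.00111). It was 2.21 at 1 year and 0.11 at 1 month.

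In groups of 4 arrays, 12 of the 152 groups of a probe held an array far from the other 3, by Dixon's criterion. Chance alone gives about 5% of groups. In the mutants these were Ccl7 at 1 year in replicate 4, at -3.15 against -3.96 to -3.87 on the others, Ccl24 at 1 month in replicate 4, at -3.75 against -4.30 to -4.21, and Cx3cl1 at 1 month in replicate 4, at 3.34 against 3.75 to 3.77.

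Among the 1-month wild types, replicate 4 stood apart for Ccl4 at -4.65, against -3.85 to -3.82 on the others, for Ccl12 at -3.77, against -4.17 to -4.11, and for Cxcl5 at -6.32, against -4.83 to -4.74. Replicate 1 stood apart for Ackr3 at -1.16, against -0.51 to -0.41, and replicate 3 for a probe of Ccl19 at -2.75, against -2.27 to -2.21. Among the 1-year wild types, replicate 4 stood apart for Cxcl1 at -3.52, against -2.89 to -2.78. Replicate 1 of that group stood apart for both other probes of Ccl19, at -1.33 against -0.76 to -0.64 and at -1.67 against -1.22 to -1.15, and for the second probe of Ccl25 at -4.88, against -4.33 to -4.28.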

How the results depend on the processing

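No alternative turned the sign of a called change. Small uncalled changes did turn: at 1 month 4 genes on slide 2 alone (such as Cxcr2, 0.32 there and -0.15 on both slides), 5 without the arrays of female pattern (such as Ccl2, 0.03 against -0.17, and Cxcl13, -0.03 against 0.11) and 3 in the deposited matrix. At 1 year 3 genes turned on each slide alone and 1 in the deposited matrix, and the median change of 0.09 was -0.01 without mutant 1-year replicate 4. At 1 month, 7 genes were called between genotypes, against 3 with normexp on median intensity (Ccl11, Ccl12 and Cxcl5), 3 without the arrays of female pattern, 0 on slide 1 alone and 0 on slide 2 alone, where 2 arrays a group limit the test. Leaving out 1 array gave 4 to 8, with 4 without mutant 1-month replicate 1, where Ccl7, Ccl24 and Cxcl10 were lost. At 1 year 1 gene was called, against 2 with slide as a block and 2 with the replicate block (Ccl12 added in both), and 0 on slide 2 alone. Leaving out 1 array gave 1 to 3. Without wild-type 1-year replicate 1 there were 3 (Ccl9 and Ccl12 added), and without its replicate 4 there were 2 (Ccl2 added). For the difference between ages, 1 gene was called, against 2 with normexp (Ccl11 added), 2 with quantile normalization and 2 with the deposited matrix (Ccl17 added in both), 0 on slide 1 and 0 on slide 2, and 1 to 2 on leaving out 1 array, with 2 without replicate 4 of the 1-month wild types (Ccl11 added) or of the 1-year wild types (Ccl17 added). For age in the mutants, 7 genes were called, against 4 with normexp, 4 without the arrays of female pattern, 4 with sex pattern as a covariate, 5 with slide as a block, 6 with the replicate block (Cxcl10 added; Ccl9 and Cxcl1 lost in both), 1 on slide 1 and 0 on slide 2. With quantile normalization and with the deposited matrix 5 were called, without Ccl9 and Ccl12. Leaving out 1 array gave 4 to 8, with 4 without mutant 1-month replicate 2 or mutant 1-year replicate 1 or 4. For age in the wild types, 15 were called, against 14 with normexp (Ccl25 added; Ccl17 and Cxcr3 lost), 6 on slide 1 and 7 on slide 2, and 13 to 17 on leaving out 1 array. Where not given here, the cause was not tested. Array row as a covariate, chosen after seeing the data, gave 8 genes at 1 month and 1 at 1 year.

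Deviations of same-numbered arrays of different groups correlated from -0.54 to 0.30, over 0.1 in 5 of 24 pairs, so replicate numbers showed no uniform pairing. Arrays of unlike number were not compared, so these values do not settle whether samples were paired. With the replicate block, 6 of the 7 genes were called at 1 month, without Ccl7. Genes dim in the 1-month wild types, such as Ccl7, are limited by background.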
